A study of Homo sapiens with 48 samples.

Results

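PRDM1, IRF4, XBP1, ELL2, ERN1 and JCHAIN are 6 genes that direct or serve the change of a B cell into an antibody-secreting plasma cell. They were taken by symbol from a table of read counts for 37706 genes, and all 6 were among the 17749 genes with enough counts to be tested. RNA was sequenced from 4 established human lymphoma lines. SUDHL6, Oci-Ly7, Oci-Ly8 and Oci-Ly18 all derive from diffuse large B cell lymphoma that resembles germinal centre B cells. Line names follow the sample labels, since the protocol text for cell growth lists Oci-Ly8 2 times and leaves Oci-Ly7 out. Each line was grown with DMSO, the vehicle of the control, with EPZ-5676, which inhibits DOT1L (DOT1Li), with GSK343, which inhibits EZH2 (EZH2i), or with both inhibitors (Combo). Treatment lasted 6 days, with the cells put into new medium and inhibitor on day 3, and no source used here gives the doses. The 16 groups of line and treatment have 3 libraries each. The labels do not say that these came from separate cultures, so a p-value here reflects the spread between libraries alone, which may be technical. The title of the study names the question as whether DOT1L and EZH2 together hold down Polycomb targets and keep germinal centre identity, and plasma cell genes are one readout of that identity.

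Germinal centre B cells leave their programme when PRDM1 is switched on. PRDM1 encodes BLIMP1, a zinc finger repressor that shuts off genes of the B cell and the germinal centre, while BCL6 and BACH2 hold PRDM1 itself down. IRF4 is a transcription factor whose action depends on its amount, with high levels favouring PRDM1 and plasma cell fate. ERN1 encodes IRE1, a sensor of unfolded protein in the endoplasmic reticulum whose nuclease activity cuts a short segment out of XBP1 mRNA, and the protein made from the spliced form turns on the genes of secretion. ELL2 is an elongation factor of RNA polymerase II that favours the secreted form of immunoglobulin heavy chain mRNA, and JCHAIN is the peptide that joins IgM and IgA into polymers. DOT1L methylates histone H3 along genes that are being transcribed. EZH2 is the enzyme of Polycomb repressive complex 2 (PRC2), whose histone mark keeps genes silent.

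On GRCh38 the 6 genes lie on 5 chromosomes. PRDM1 (ENSG00000057657) is at chr6:105993463-106109939 and IRF4 (ENSG00000137265) at chr6:391739-411443. XBP1 (ENSG00000100219) is at chr22:28794555-28800597 and ERN1 (ENSG00000178607) at chr17:64039080-64130819. ELL2 (ENSG00000118985) is at chr5:95885098-95961851 and JCHAIN (ENSG00000132465) at chr4:70655541-70681817. All 6 are protein coding, and counts are for the whole gene.

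The segment that IRE1 removes from XBP1 mRNA is shown first because it decides which XBP1 protein is made, and a gene count adds both forms together. It is 26 bases long in the GENCODE 29 transcripts of GRCh38, at chr22:28796124-28796149 on the minus strand, in capitals here with 12 bases of exon on each side.
XBP1 segment cut by IRE1: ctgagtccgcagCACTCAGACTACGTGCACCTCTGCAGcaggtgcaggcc
The annotation holds 7 XBP1 transcripts, of which 4 contain the segment and 2 span the place without it. Those 2 place the segment 2 bases apart, which leaves the same mRNA because bases repeat at its ends. The capitals follow the placement nearer the transcript start, so they do not fix the exact bases between which IRE1 cuts. The counts used here cannot separate these forms, so every XBP1 value below is for the gene as a whole.

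Promoter windows from RefSeq on GRCh38.p14 run from 250 bases before to 50 bases after a transcript start, and 5 of the 6 genes had at least 1 (ELL2 had none). Both strands were searched for 9 short motifs and for the ER stress element. The motifs and the share of all 35116 windows that hold each were TGACGTGG (0.729%) and its core ACGTGG (9.72%), CCAAT (34.6%), GGAANNGAA (7.79%), GAAANNGAA (8.11%), TTCNNNGAA (7.66%), AGTGAAAG (1.34%), TGANTCA (7.71%) and CACGTG (7.26%). The ER stress element, read here as CCAAT followed by CCACG with 9 bases between, was added to the search later and was in 27 windows (0.0769%). Its CCAAT part counts under CCAAT as well.

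The promoter window is shown here for 3 genes, that of XBP1 for its ER stress element and those of PRDM1 and JCHAIN because both hold TGANTCA, the AP-1 motif. The capitals mark those matches, which are matches of letters and not shown binding sites.
XBP1, chr22:28800520-28800819, minus strand: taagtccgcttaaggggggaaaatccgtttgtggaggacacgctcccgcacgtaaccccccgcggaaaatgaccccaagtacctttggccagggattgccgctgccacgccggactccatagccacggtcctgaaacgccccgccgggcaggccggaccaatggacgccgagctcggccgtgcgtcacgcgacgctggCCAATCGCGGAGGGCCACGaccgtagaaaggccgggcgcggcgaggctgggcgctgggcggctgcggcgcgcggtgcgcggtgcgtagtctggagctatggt
PRDM1, second window, chr6:106098691-106098990, plus strand: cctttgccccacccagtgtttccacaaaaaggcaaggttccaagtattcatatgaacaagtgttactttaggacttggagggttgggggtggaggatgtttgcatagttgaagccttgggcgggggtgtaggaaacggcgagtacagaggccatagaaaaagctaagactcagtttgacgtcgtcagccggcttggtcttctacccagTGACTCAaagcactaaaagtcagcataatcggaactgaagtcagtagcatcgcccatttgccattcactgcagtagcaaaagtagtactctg
JCHAIN, chr4:70666459-70666758, minus strand: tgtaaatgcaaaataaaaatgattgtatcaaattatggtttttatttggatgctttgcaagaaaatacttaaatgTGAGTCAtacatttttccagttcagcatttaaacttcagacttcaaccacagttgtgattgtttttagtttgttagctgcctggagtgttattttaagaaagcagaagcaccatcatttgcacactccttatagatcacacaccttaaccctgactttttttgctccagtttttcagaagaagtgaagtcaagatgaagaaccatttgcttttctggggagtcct
The XBP1 window also holds CCAAT a second time, and the same PRDM1 window holds GGAANNGAA. The first PRDM1 window holds ACGTGG and the ERN1 window holds CCAAT, each on the other strand. The IRF4 window held no match, which says only that these letters are not in it.

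Library totals ran from 5174269 to 18845074 counts, and the second lowest was 11391942. A pair of Oci-Ly8 libraries, replicate 3 of DMSO and of DOT1Li, was poorer in long transcripts than the rest, with a slope of log2 level on log2 exonic length of 0.723 and 0.758 against 0.821 to 1.01. Within each line every Combo library also had a higher slope than every DMSO library. The lowest Combo slope was 0.975 against a highest DMSO slope of 0.943 for SUDHL6, and 1.002 against 0.979 for Oci-Ly18. The same bounds were 0.888 against 0.871 (Oci-Ly8) and 0.871 against 0.829 (Oci-Ly7). ERN1, ELL2, PRDM1 and IRF4, raised on average by Combo, have 5898 to 10864 exonic bases. XBP1 and JCHAIN, lowered by it, have 3028 and 1680. Whether transcript length bears on these changes was not tested. Oci-Ly7 DOT1Li replicate 1 stood apart from its 2 replicates in several of the 6 genes and lay near DMSO. The 8 pan-B genes, MS4A1 and PAX5 among them, had counts in all 48 libraries. Of 11 germinal centre genes in the table, SERPINA9 was at 0 in 33 libraries and never above 0.393 CPM, the count scaled to a common library size. Summed T cell markers ran from 9.98 to 60.8 CPM with DMSO and from 10.1 to 19.3 with Combo, with CD3D at 0 in 36 libraries and CD2 at 0 in 37, and TRAC reached 58.0 CPM. NK markers summed to at most 7.03 CPM, and myeloid markers to at most 26.4 CPM, with CD68 at 0 in 46 libraries. In bulk RNA a lower level in each cell and fewer cells that express a gene cannot be told apart.

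With DMSO the lines differed widely in these genes, and no line was highest in all 6. Levels are in CPM, on library totals scaled by TMM, as mean ± SD of 3 libraries. Oci-Ly7 had the highest IRF4, XBP1, ERN1 and JCHAIN, and Oci-Ly18 the highest PRDM1 and ELL2.
Leaving aside ELL2, which was near 0 in SUDHL6, JCHAIN had the widest range, and its 4 lines differed in every pair. It stood at 1029 ± 44.5 CPM in Oci-Ly7, 264 ± 29.3 in Oci-Ly18, 154 ± 32.8 in Oci-Ly8 and 13.4 ± 4.48 in SUDHL6, a 76.9-fold range.
IRF4 was at 219.9 ± 8.39 CPM in Oci-Ly7 and 27.2 ± 1.39 in Oci-Ly8, with Oci-Ly18 at 95.7 ± 6.95 and SUDHL6 at 86.8 ± 5.54 between them. The middle pair was not called different (adjusted p = 0.351), and the range was 8.08-fold.
XBP1 was at 483 ± 55.1 CPM in Oci-Ly7, 433 ± 52.0 in Oci-Ly8, 335 ± 15.9 in SUDHL6 and 66.0 ± 4.44 in Oci-Ly18. Its upper pair was not called different (adjusted p = 0.226), and Oci-Ly18 was 7.32-fold below Oci-Ly7.
PRDM1 was low in every line, at 5.56 ± 1.17 CPM in Oci-Ly18, 5.48 ± 0.80 in SUDHL6, 2.47 ± 0.45 in Oci-Ly7 and 2.22 ± 0.66 in Oci-Ly8. The upper pair (adjusted p = 0.979) and the lower pair (adjusted p = 0.796) were each not called different.
ERN1 was at 28.5 CPM in Oci-Ly7 and between 7.71 and 7.92 in the other lines, which were not called different from one another. ELL2 was at 8.19 CPM in Oci-Ly18, 8.06 in Oci-Ly8 and 3.71 in Oci-Ly7, while SUDHL6 had 2 counts in its 3 DMSO libraries together. Of the 6 genes, between 3 and 6 were called in each of the 6 pairs of lines, where 62.8% of all genes were called for Oci-Ly7 against Oci-Ly8, 68.3% for Oci-Ly7 against SUDHL6, 68.2% for Oci-Ly7 against Oci-Ly18, 69.4% for Oci-Ly8 against SUDHL6, 66.9% for Oci-Ly8 against Oci-Ly18 and 67.4% for SUDHL6 against Oci-Ly18.
Per kilobase of exon, a scale on which genes can be compared, Oci-Ly7 with DMSO had JCHAIN at 613 CPM per kb, XBP1 at 160, IRF4 at 37.3, ERN1 at 2.62, ELL2 at 0.51 and PRDM1 at 0.39. PRDM1 had the lowest level of the 6 there, and with Combo it reached 5.43 CPM per kb.

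**Figure D1:**
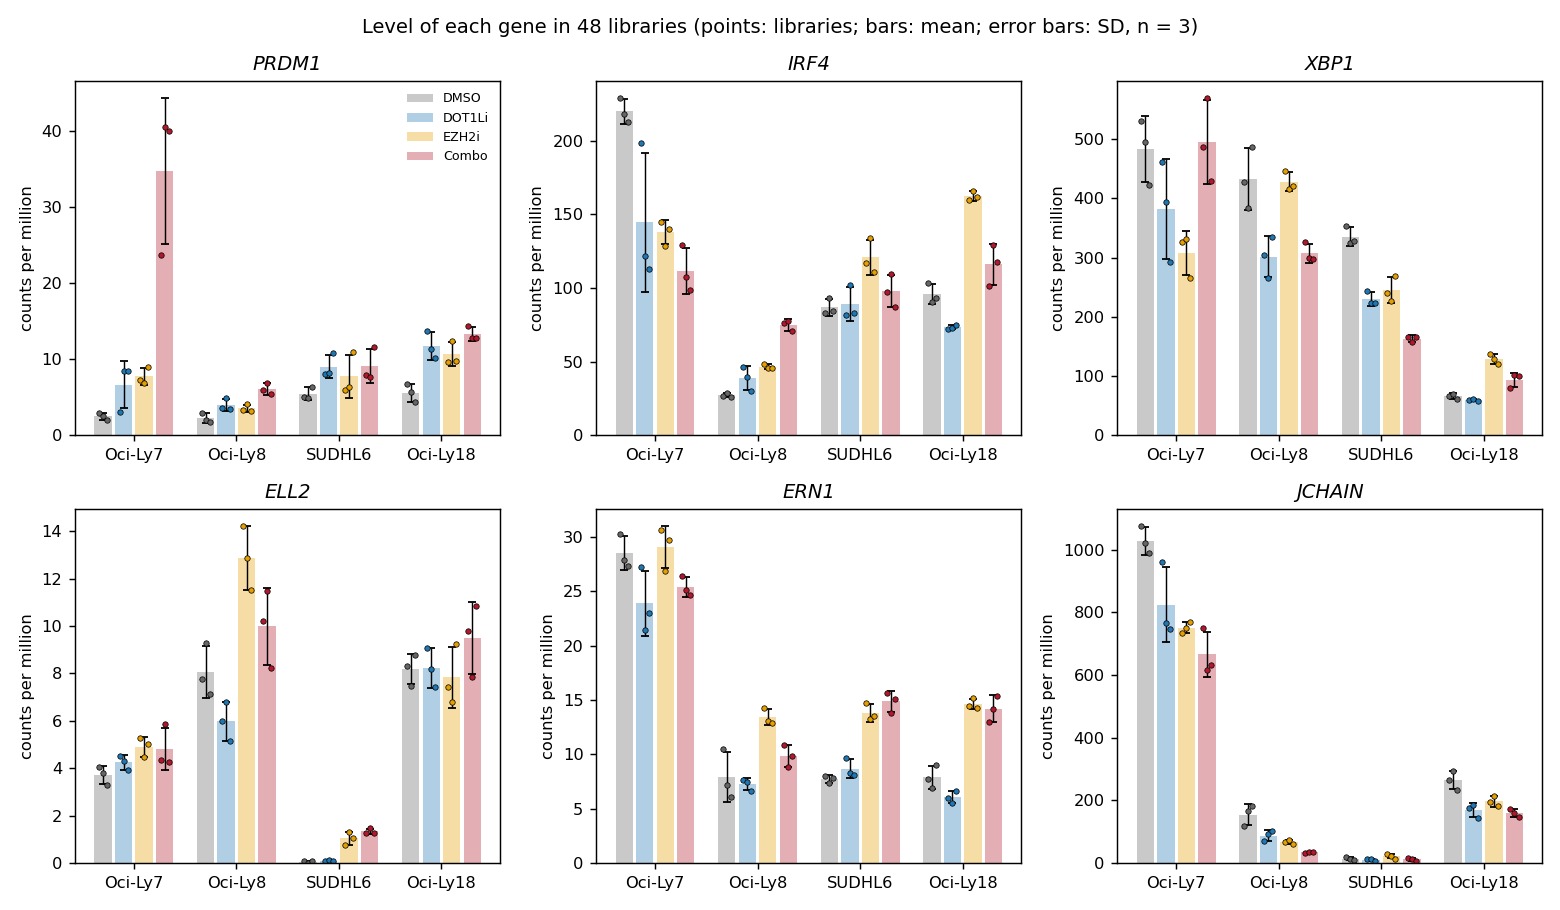
Level of each gene in CPM (y axis) in the 4 lines with each of 4 treatments; points are libraries, bars the mean of 3 and error bars the SD. PRDM1 in Oci-Ly7 with Combo (34.7 ± 9.61 CPM) stands above every other group of that gene, ELL2 is near 0 in SUDHL6 without EZH2i, and JCHAIN differs more between lines than between treatments.

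Across treatments the 6 genes did not move as a block. A gene is called higher or lower when its adjusted p is under 0.05, where p comes from edgeR's quasi-likelihood test and is adjusted by Benjamini-Hochberg over the 17749 genes, and changes are log2 fold changes with their SE. Averaged over the 4 lines with equal weight, DOT1Li raised PRDM1 and lowered XBP1 and JCHAIN, 3 of 6 genes where 10.3% of all genes were called, 5.08% higher and 5.19% lower. EZH2i raised PRDM1, IRF4, ELL2 and ERN1 and lowered JCHAIN, 5 of 6 where 28.2% of all were called, 15.7% higher and 12.5% lower. Combo raised PRDM1, IRF4, ELL2 and ERN1 and lowered XBP1 and JCHAIN, 6 of 6 where 46.4% of all were called, 25.7% higher and 20.7% lower. The 3 comparisons share the DMSO libraries. PRDM1 was called higher under all 3 treatments and JCHAIN lower under all 3.

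Within lines the picture differed from line to line. In brackets after each count stand the shares of all genes called, called higher and called lower. In Oci-Ly7, DOT1Li raised 1 and lowered 1 of the 6 genes (2.90%, 1.72% and 1.17%), EZH2i raised 1 and lowered 2 (13.7%, 8.78% and 4.92%) and Combo raised 1 and lowered 2 (29.8%, 17.7% and 12.2%). In Oci-Ly8, DOT1Li raised 1 and lowered 2 (6.26%, 3.53% and 2.73%), EZH2i raised 3 and lowered 1 (17%, 9.04% and 7.94%) and Combo raised 2 and lowered 2 (35%, 18.1% and 16.9%). In SUDHL6, DOT1Li raised 0 and lowered 1 (4.86%, 2.76% and 2.11%), EZH2i raised 4 and lowered 1 (22.7%, 14% and 8.67%) and Combo raised 3 and lowered 1 (39.3%, 22.6% and 16.8%). In Oci-Ly18, DOT1Li raised 1 and lowered 1 (6.15%, 4.03% and 2.12%), EZH2i raised 4 and lowered 0 (22%, 13% and 9.04%) and Combo raised 3 and lowered 1 (35%, 21.1% and 14%). Of the 72 tests this gives, 24 were called higher, 15 lower and 33 not. Where the text says that groups did not overlap, this is a description and not a second test. Groups of 3 libraries can lie apart by chance, and the share of all genes that do was not counted. Oci-Ly7 stood out for having PRDM1 as its only gene called higher, with IRF4 called lower under every treatment.

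**Figure D2:**
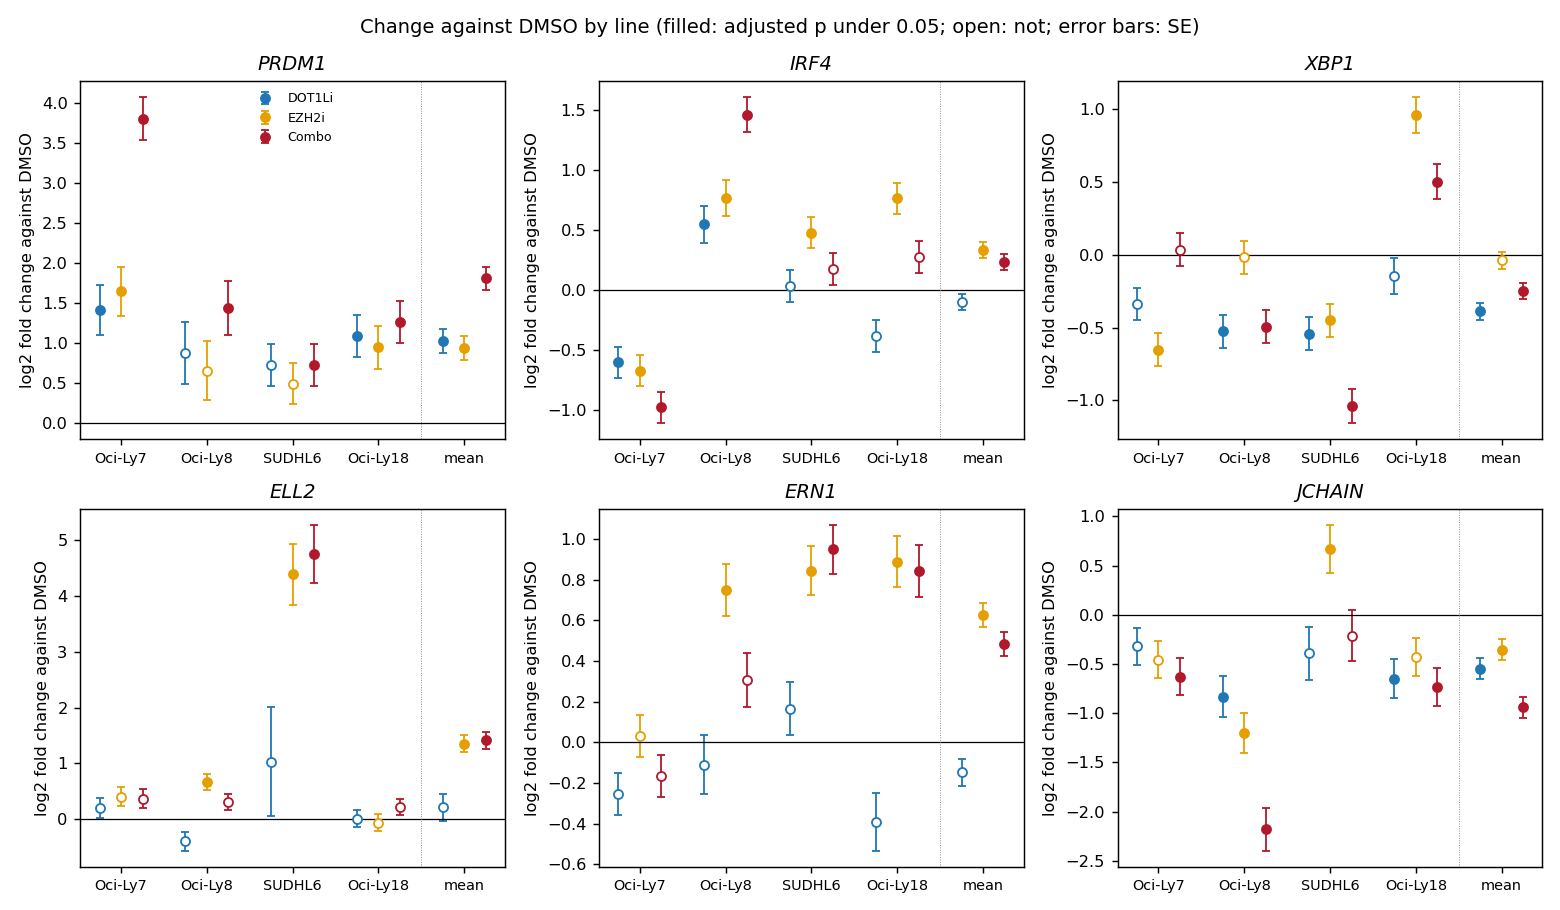
Log2 fold change against DMSO (y axis) of each gene in each line and as the mean of 4 lines; error bars are the SE, and filled points have an adjusted p under 0.05. PRDM1 lies above 0 in all 12 line comparisons, IRF4 lies below 0 in Oci-Ly7 and above 0 in Oci-Ly8, and XBP1 is raised only in Oci-Ly18 among the called values.

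PRDM1, whose product drives plasma cell fate by repressing B cell genes, was higher than with DMSO in 12 of 12 line comparisons. It was called in 8, with Oci-Ly7 under Combo reaching 14-fold. Within a line the 3 treatments share DMSO libraries, so the 12 comparisons are not independent. In Oci-Ly7 the 3 libraries had 2.92, 2.47 and 2.02 CPM with DMSO, 3.04, 8.45 and 8.44 with DOT1Li, 7.28, 6.90 and 9.03 with EZH2i, then 23.6, 40.6 and 39.97 with Combo. Every Combo library stood above every other library of the line, and DOT1Li replicate 1 was next to DMSO. The changes were 1.41 (SE 0.31, adjusted p = 5.13e-03) with DOT1Li, 1.65 (SE 0.30, adjusted p = 1.08e-04) with EZH2i and 3.81 (SE 0.27, adjusted p = 3.17e-14) with Combo.
In Oci-Ly18 PRDM1 had 6.69, 5.65 and 4.35 CPM with DMSO, 13.7, 11.3 and 10.1 with DOT1Li, 9.66, 12.4 and 9.78 with EZH2i, then 14.3, 12.7 and 12.7 with Combo. No treated library fell into the DMSO range. PRDM1 rose by 1.09 (SE 0.27), 0.94 (SE 0.27) and 1.26 (SE 0.26) in that order.
In Oci-Ly8 it had 2.97, 1.98 and 1.72 CPM with DMSO and 5.88, 6.91 and 5.38 with Combo, a rise of 1.44 (SE 0.34, adjusted p = 9.41e-04). The single inhibitors gave 0.88 (SE 0.38, adjusted p = 0.197) for DOT1Li, with 3.59, 4.87 and 3.44 CPM, and 0.65 (SE 0.36, adjusted p = 0.233) for EZH2i, with 3.30, 4.09 and 3.24 CPM. These 6 libraries also lay above all 3 DMSO libraries although neither change was called. With the replicate number as a block, DOT1Li gave 0.84 (SE 0.28, adjusted p = 0.0495), which was called.
In SUDHL6 it had 5.09, 4.95 and 6.39 CPM with DMSO, 8.02, 8.20 and 10.8 with DOT1Li, 5.89, 6.37 and 11 with EZH2i, then 7.90, 7.65 and 11.6 with Combo. Only the Combo change was called here, at 0.72 (SE 0.26, adjusted p = 0.0239), and the EZH2i and DMSO ranges overlapped.
Averaged over lines PRDM1 rose by 1.02 (SE 0.16, adjusted p = 1.22e-05) with DOT1Li, 0.93 (SE 0.15, adjusted p = 6.06e-06) with EZH2i and 1.81 (SE 0.14, adjusted p = 1.65e-13) with Combo, and the Combo mean was 1.14 (adjusted p = 3.84e-07) without Oci-Ly7. Some line calls rested on single libraries. The DOT1Li call in Oci-Ly7 was lost without DOT1Li replicate 2 (1.18, adjusted p = 0.107) or replicate 3 (1.21, adjusted p = 0.0674) and with the line fitted alone (adjusted p = 0.151). The Combo call in SUDHL6 was lost without DMSO replicate 1 (0.67, adjusted p = 0.0754), DMSO replicate 2 (0.65, adjusted p = 0.0845) or Combo replicate 3 (0.51, adjusted p = 0.162). Replicate 3 was the highest in each SUDHL6 group, and these refits do not use the replicate numbers. In Oci-Ly18 the DOT1Li call was lost without DMSO replicate 3 (0.93, adjusted p = 0.0694) or DOT1Li replicate 1 (0.96, adjusted p = 0.0572), and the EZH2i call without DMSO replicate 3 (0.79, adjusted p = 0.0661) or EZH2i replicate 2 (0.82, adjusted p = 0.0533).

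Of 22 listed regulators of PRDM1, Combo averaged over lines raised 8 and lowered 9, where 25.7% of all genes were called higher and 20.7% lower, with a median log2 change of 0.0015 against 0.078 over all genes, and DOT1Li raised 0 and lowered 4, beside 5.08% and 5.19%. KLF2, a factor of quiescent lymphocytes, rose by 1.87 (SE 0.18), while FOXO1 fell by 0.42 (SE 0.04) and SPIB, an ETS factor that opposes plasma cell fate, fell by 0.49 (SE 0.06). BCL6, the repressor of PRDM1 in germinal centre cells, changed in opposite directions between lines under Combo. Its mean level went from 209 to 132 CPM in Oci-Ly7 and from 179 to 75.8 in Oci-Ly18, both called lower (-0.66 and -1.24), and from 113 to 142 in Oci-Ly8 and from 15.1 to 27.8 in SUDHL6, both called higher (0.33 and 0.88). PRDM1 was called higher with Combo in all 4 lines. BACH2, the other repressor, was called higher with Combo averaged over lines (0.29, SE 0.06, adjusted p = 2.53e-04). Within lines it was called only in Oci-Ly8, at 0.56, with 0.31 in Oci-Ly7, 0.12 in SUDHL6 and 0.16 in Oci-Ly18.

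Of 22 listed genes that BLIMP1 is known to repress, Combo averaged over lines raised 8 and lowered 6, with a median of 0.081 against 0.078 over all genes and beside 25.7% of all genes higher and 20.7% lower. In Oci-Ly7, the line with the highest PRDM1, 4 were higher and 12 lower (median -0.34), against 10 and 8 in Oci-Ly8 (0.29), 11 and 5 in SUDHL6 (0.33) and 9 and 10 in Oci-Ly18 (-0.07). All genes had 17.7% called higher and 12.2% called lower in Oci-Ly7, against 18.1% and 16.9% in Oci-Ly8, 22.6% and 16.8% in SUDHL6, and 21.1% and 14% in Oci-Ly18. Whether the lines differ in this count was not tested. SYK, a kinase of the B cell receptor, fell by 0.60 (SE 0.03) and ID3 by 0.68 (SE 0.05) on average, while BLNK, an adaptor of the same receptor, rose by 0.47 (SE 0.04). CIITA, which switches on MHC class II, was lower in Oci-Ly7 (-0.51) and higher in Oci-Ly8 (0.99), SUDHL6 (0.31) and Oci-Ly18 (0.30). MYC was called lower in Oci-Ly8 (-0.23) and SUDHL6 (-0.87) and higher in Oci-Ly18 (0.44), and PAX5, which defines B cell identity, was called only in Oci-Ly8 (0.42).

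IRF4 moved in opposite directions in the line where it started highest and the line where it started lowest. In Oci-Ly7 its libraries had 229, 218 and 213 CPM with DMSO, 199, 122 and 113 with DOT1Li, 145, 129 and 140.4 with EZH2i, then 129, 108 and 98.6 with Combo. All treated libraries were below the DMSO range, with DOT1Li replicate 1 nearest to it. IRF4 fell there by 0.60 (SE 0.13), 0.67 (SE 0.13) and 0.98 (SE 0.13, adjusted p = 1.17e-07).
In Oci-Ly8 IRF4 had 26.9, 28.7 and 26 CPM with DMSO, 46.5, 39.7 and 30.3 with DOT1Li, 48.3, 45.4 and 45.5 with EZH2i, then 76.4, 77.7 and 70.5 with Combo. Each treatment lay above DMSO, and Combo above both single inhibitors. The rises were 0.55 (SE 0.15), 0.77 (SE 0.15) and 1.46 (SE 0.15, adjusted p = 2.11e-10). With Combo the Oci-Ly7 and Oci-Ly8 means were 112 and 74.9 CPM, from 219.9 and 27.2 with DMSO.
In Oci-Ly18 the libraries had 104, 90.3 and 93.3 CPM with DMSO, 72.3, 73.0 and 75.0 with DOT1Li, 159.5, 166 and 161 with EZH2i, then 101, 129 and 117 with Combo. EZH2i raised IRF4 by 0.76 (SE 0.13, adjusted p = 2.38e-05), while the DOT1Li value of -0.38 (SE 0.13, adjusted p = 0.0896) was not called though its groups did not overlap. With Combo the level lay below that with EZH2i alone (-0.49, called).
In SUDHL6 only EZH2i passed, at 0.48 (SE 0.13, adjusted p = 6.24e-03), with 117, 134 and 111 CPM against 82.7, 93.1 and 84.5 with DMSO.
The averages of IRF4 hide these opposite changes. They were 0.33 (SE 0.07, adjusted p = 1.59e-04) with EZH2i and 0.23 (SE 0.07, adjusted p = 3.96e-03) with Combo. The mean over 3 lines was 0.67 and 0.64 without Oci-Ly7, while without Oci-Ly8 it was 0.19 (adjusted p = 0.0573) and, for Combo, -0.18 (adjusted p = 0.0556), and without Oci-Ly18 the EZH2i mean was 0.19 (adjusted p = 0.0707). For DOT1Li the average of -0.10 (adjusted p = 0.434) was -0.32 (adjusted p = 5.97e-03) without Oci-Ly8, and it was called without Oci-Ly7 DOT1Li replicate 1 (-0.18, adjusted p = 0.0185). The DOT1Li call in Oci-Ly7 was lost without DOT1Li replicate 2 (-0.49, adjusted p = 0.0952) or replicate 3 (-0.46, adjusted p = 0.0775) and with the line fitted alone (adjusted p = 0.132), and was -0.90 without replicate 1. The DOT1Li call in Oci-Ly8 was lost without DMSO replicate 1 (0.54, adjusted p = 0.0538), DMSO replicate 3 (0.52, adjusted p = 0.0694), DOT1Li replicate 1 (0.40, adjusted p = 0.216) or DOT1Li replicate 2 (0.55, adjusted p = 0.0855), and without both libraries poor in long transcripts (0.62, adjusted p = 0.0680). The Combo value in Oci-Ly18 was called without Combo replicate 1 (0.36, adjusted p = 0.0474).

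Of 10 listed partners of IRF4, with which it binds composite DNA elements, Combo averaged over lines lowered 6 and raised 1, with a median of -0.20, where 20.7% of all genes were lower and 25.7% higher, and without the libraries poor in long transcripts 2 were higher. SPI1, the ETS factor PU.1, fell by 0.33 (SE 0.04), SPIB by the amount given above, and IRF8, a related factor of germinal centre B cells, by 0.49 (SE 0.07).

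ERN1, the sensor upstream of XBP1, was raised wherever it was called, and every call involved EZH2i. In SUDHL6 it had 8.01, 7.33 and 7.79 CPM with DMSO, 9.66, 8.26 and 8.06 with DOT1Li, 14.8, 13.2 and 13.5 with EZH2i, then 15.7, 13.8 and 15.1 with Combo. In Oci-Ly18 it had 7.75, 6.92 and 8.97 CPM with DMSO, 5.94, 5.55 and 6.63 with DOT1Li, 14.5, 15.2 and 14.3 with EZH2i, then 13, 14.2 and 15.4 with Combo. In both lines every library that received EZH2i had more ERN1 than every library that did not. The DOT1Li libraries of Oci-Ly18 also lay below those with DMSO, a change that was not called. The rises were 0.84 (SE 0.12) and 0.95 (SE 0.12) in SUDHL6 and 0.89 (SE 0.13) and 0.84 (SE 0.13) in Oci-Ly18, for EZH2i and Combo in turn.
In Oci-Ly8 ERN1 had 10.5, 7.15 and 6.09 CPM with DMSO, 14.2, 13.1 and 12.9 with EZH2i, then 10.9, 8.86 and 9.84 with Combo. EZH2i raised it by 0.75 (SE 0.13, adjusted p = 1.95e-05), and Combo lay below EZH2i alone (-0.44, called). The Combo value of 0.31 (SE 0.13, adjusted p = 0.0706) was called without DMSO replicate 1 (0.57, adjusted p = 7.35e-04) or Combo replicate 2 (0.38, adjusted p = 0.0459).
In Oci-Ly7, where ERN1 was highest, all 12 libraries lay between 21.5 and 30.7 CPM and no treatment passed. Averaged over lines ERN1 rose by 0.63 (SE 0.06, adjusted p = 1.05e-11) with EZH2i and 0.48 (SE 0.06, adjusted p = 3.59e-09) with Combo, and its DOT1Li value was -0.15 (SE 0.07, adjusted p = 0.165), called without SUDHL6 (-0.25, adjusted p = 0.0309).

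XBP1, the target of that sensor, rose with ERN1 in Oci-Ly18 and fell in SUDHL6, where ERN1 rose. DOT1Li lowered it in 2 lines, Combo lowered it in 2 and raised it in 1, and EZH2i lowered it in 2 and raised it in 1. In SUDHL6 it had 353, 324 and 328 CPM with DMSO, 244, 223 and 224 with DOT1Li, 240.0, 227 and 269 with EZH2i, then 166, 157 and 166 with Combo. Each treatment lay below DMSO and Combo lay below both single inhibitors, with changes of -0.54 (SE 0.11), -0.45 (SE 0.11) and -1.04 (SE 0.12, adjusted p = 1.36e-09), while ERN1 rose in the same line.
In Oci-Ly18, where XBP1 was lowest, it had 66.3, 70.3 and 61.5 CPM with DMSO, 60.3, 60.7 and 57.9 with DOT1Li, 137, 129 and 119.9 with EZH2i, then 79.7, 101 and 99.9 with Combo. EZH2i raised it by 0.96 (SE 0.12, adjusted p = 4.78e-08) and Combo by 0.50 (SE 0.12, adjusted p = 1.01e-03). Combo lay below EZH2i alone by a called 0.46 on the log2 scale (-0.46).
In Oci-Ly8 it had 427, 384 and 488 CPM with DMSO, 305, 266 and 334 with DOT1Li, 446, 417 and 422 with EZH2i, then 326, 299 and 298 with Combo. DOT1Li lowered it by a log2 value of -0.52 (SE 0.11) and Combo by -0.49 (SE 0.11), and EZH2i alone gave -0.02 (SE 0.11).
In Oci-Ly7 it had 531, 496 and 423 CPM with DMSO, 461, 394 and 293 with DOT1Li, 326, 332 and 265 with EZH2i, then 488, 570 and 429 with Combo. The single inhibitors gave -0.34 (SE 0.11, adjusted p = 0.108) and -0.65 (SE 0.11, adjusted p = 4.39e-05), and Combo gave 0.04 (SE 0.11, adjusted p = 0.889), with libraries that overlapped DMSO. The DOT1Li value was called without DOT1Li replicate 1 (-0.49, adjusted p = 5.44e-03).
Averaged over lines XBP1 fell with DOT1Li (-0.39, SE 0.06, adjusted p = 8.41e-06) and with Combo (-0.25, SE 0.06, adjusted p = 4.10e-04), and EZH2i gave -0.04 (SE 0.06, adjusted p = 0.750). Single lines moved these means. Without SUDHL6 the Combo mean was 0.02 (adjusted p = 0.963) and the EZH2i mean 0.10, without Oci-Ly7 the EZH2i mean was 0.17, and without Oci-Ly18 the Combo mean was -0.50 and the EZH2i mean -0.37 (adjusted p = 2.77e-05). Without Oci-Ly8 the Combo mean was -0.17 (adjusted p = 0.0406).

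The genes of secretion that IRE1 and XBP1 are known to drive were followed as a list of 54, of which 52 were tested. Averaged over lines DOT1Li lowered 26 and raised 1 (median -0.12, against 0.011 over all genes), EZH2i lowered 2 and raised 9 (0.018 against 0.030), and Combo lowered 27 and raised 5 (-0.11 against 0.078). Among all genes the lower and higher shares were 5.19% and 5.08% for DOT1Li, 12.5% and 15.7% for EZH2i, and 20.7% and 25.7% for Combo. Against EZH2i alone, Combo had 32 lower and 2 higher, where 25% of all genes were called. PDIA3, a disulfide isomerase, fell by 0.41 (SE 0.04) with Combo and was called lower in all 4 lines, and TXNDC11, a thioredoxin of the endoplasmic reticulum, fell by 0.38 (SE 0.04). CKAP4, a membrane protein of that organelle, rose by 0.39 (SE 0.04).
Under EZH2i, 19 were lower and 0 higher in Oci-Ly7 (median -0.21), where 4.92% of all genes were lower and 8.78% higher. In Oci-Ly8 22 were higher and 0 lower (0.17), beside 9.04% and 7.94% of all genes, in Oci-Ly18 15 were higher and 1 lower (0.14), beside 13% and 9.04%, and in SUDHL6 there were 2 each way (-0.015), beside 14% and 8.67%. The difference of the list between lines was not tested. With Combo 37 were lower and 2 higher in Oci-Ly7 (-0.32), 20 lower and 5 higher in SUDHL6 (-0.13), 9 lower and 10 higher in Oci-Ly8 (0.036), and 4 lower and 9 higher in Oci-Ly18 (0.051), beside the shares of all genes given above for Combo in each line. The list and XBP1 itself did not line up in every line. In Oci-Ly7 with Combo XBP1 mRNA was at 0.04 while 37 of 52 list genes were lower, and in Oci-Ly8 with EZH2i XBP1 was at -0.02 while 22 were higher. With Combo HSPA5, the main chaperone of the endoplasmic reticulum, fell in Oci-Ly7 (-0.67) and SUDHL6 (-0.67). DNAJB9, a target of spliced XBP1, was called with Combo only in SUDHL6 (0.53). With EZH2i DNAJB9 was called higher in Oci-Ly8 (0.60) and SUDHL6 (0.49), and HSPA5 higher in Oci-Ly8 (0.33) and lower in SUDHL6 (-0.29). The EZH2i counts moved with single libraries: the Oci-Ly7 count of 19 was 12 without DMSO replicate 1 or 2 and 9 without EZH2i replicate 2, the Oci-Ly8 count of 22 was 14 without EZH2i replicate 1 and 11 with the line fitted alone, and the Oci-Ly18 count of 15 was 9 without DMSO replicate 1 or EZH2i replicate 2 and 8 without EZH2i replicate 3. Without the libraries poor in long transcripts the genes lower with EZH2i were 4 on average, 3 in Oci-Ly18 and 5 in SUDHL6, where 5 were higher. The Combo count of genes lower stayed between 32 and 37 in Oci-Ly7 and between 15 and 20 in SUDHL6 over 12 refits each without 1 library. In Oci-Ly8 the count of 9 lower with Combo was 4 without DMSO replicate 3, 5 without Combo replicate 2 or 3, 5 without the libraries poor in long transcripts, 2 with the line fitted alone, 4 with DESeq2 and 5 with its size factors, and that of 10 higher was 6 without Combo replicate 1 and 16 with DESeq2. In Oci-Ly18 the 4 lower with Combo were 2 without DMSO replicate 3, 7 without the libraries poor in long transcripts and 9 with the line fitted alone, and in SUDHL6 the 5 higher were 3 without DMSO replicate 1 or Combo replicate 3. The averaged count of 27 lower with Combo was 14 without Oci-Ly7.

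**Figure D3:**
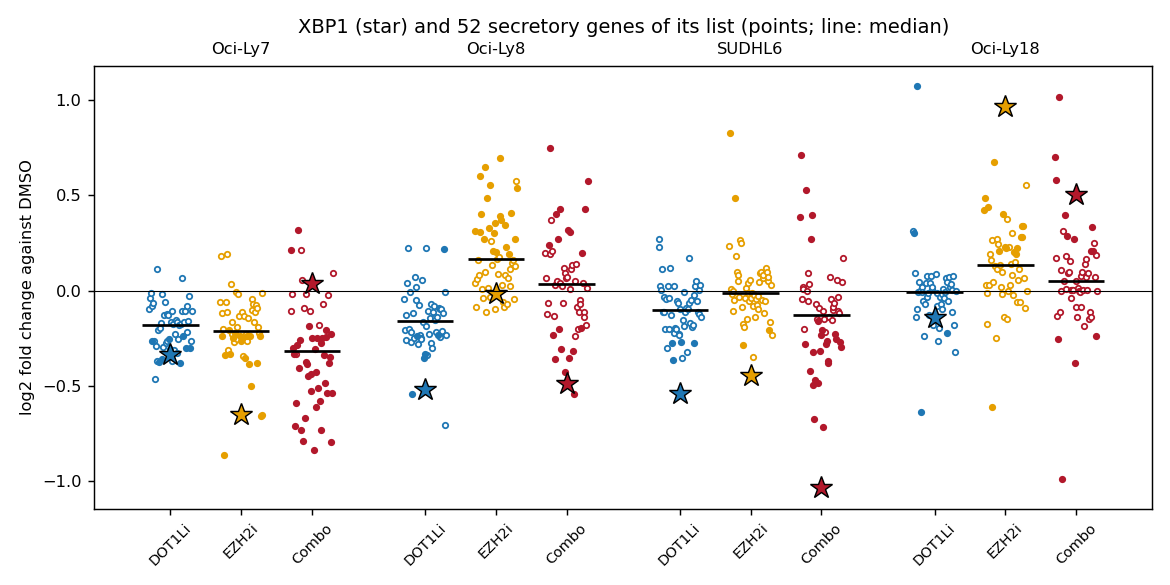
Log2 fold change against DMSO (y axis) of XBP1 (star) and of the 52 tested genes of its secretory list (points, filled where the adjusted p is under 0.05) for each treatment in each line; the black line is the median of the list. With Combo in Oci-Ly7 the star is at 0.04 and the list median at -0.32, and in SUDHL6 the star, at -1.04, lies below every point.

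Of 15 tested genes of the other unfolded protein sensors and the ATF4 arm, Combo averaged over lines lowered 4 and raised 2, beside 46.4% of all genes called. ATF4, the transcription factor of that arm, fell by 0.38 (SE 0.06), TRAF2, an adaptor that binds IRE1, by 0.27 (SE 0.05) and BFAR by 0.21 (SE 0.03).

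ELL2, the elongation factor, was near absent from SUDHL6 and appeared there when EZH2i was given. Its libraries in SUDHL6 had 1, 0 and 1 counts with DMSO, 1, 2 and 1 with DOT1Li, 14, 26 and 18 with EZH2i, then 23, 24 and 21 with Combo. The 6 libraries with EZH2i had 14 or more counts and the 6 without had at most 2. Summed over 3 libraries this is 2 counts (0.0414 CPM) with DMSO, 4 (0.0933 CPM) with DOT1Li, 58 (1.04 CPM) with EZH2i and 68 (1.33 CPM) with Combo. The ratio to DMSO was 25.1 with EZH2i, with an exact 95% counting interval of 6.64 to 212, and 32.2 with Combo (8.57 to 271), while DOT1Li gave 2.25 (0.323 to 24.9). These intervals cover counting error only. The fitted changes of 4.39 (adjusted p = 3.26e-08) and 4.75 (adjusted p = 3.05e-10) passed the test, but their size depends on the prior count. The level reached, 1.33 CPM, was still below the 3.30 CPM of the lowest library of any other line.
In Oci-Ly8 ELL2 had 7.78, 9.27 and 7.12 CPM with DMSO, 5.99, 6.80 and 5.16 with DOT1Li, 14.2, 12.9 and 11.5 with EZH2i, then 10.2, 11.5 and 8.24 with Combo. EZH2i raised it by 0.67 (SE 0.14, adjusted p = 6.35e-04). Combo, at 0.31 (SE 0.15, adjusted p = 0.103), was not called, and was called without DMSO replicate 2 (0.42, adjusted p = 0.0440) or Combo replicate 3 (0.42, adjusted p = 0.0398).
In Oci-Ly7 and Oci-Ly18 no treatment passed, with libraries between 3.30 and 5.85 CPM and between 6.82 and 10.9 CPM. The averages over lines were 1.35 (SE 0.15) with EZH2i and 1.41 (SE 0.15) with Combo, and 0.34 (adjusted p = 3.51e-03) and 0.30 (adjusted p = 5.52e-03) without SUDHL6, so most of the averaged value came from that line. ELL2 shares 36 exonic bases with an antisense transcript, AC104123.1, and no source used here gives the strand setting of the counting.

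Of 22 tested partners of ELL2 in the elongation complexes, Combo averaged over lines lowered 6 and raised 3, beside 20.7% of all genes lower and 25.7% higher. SUPT5H, a subunit of the pausing factor DSIF, fell by 0.30 (SE 0.03) and CSTF2, a cleavage factor of mRNA ends, by 0.20 (SE 0.04). EAF2, which binds ELL proteins, fell by 0.77 (SE 0.10), and only Oci-Ly7 was called, going from 37.9 to 7.95 CPM (-2.24). DOT1L and EZH2, the targets of the inhibitors, were both called lower in mRNA with Combo on average, at -0.15 and -0.26. DOT1L was called in none of the 4 lines, while EZH2 was called lower in Oci-Ly18 (-0.57), SUDHL6 (-0.50) and Oci-Ly8 (-0.15) and higher in Oci-Ly7 (0.17). These inhibitors act on the enzymes and not on their mRNA, so this is no check of the labels.

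JCHAIN is a gene of the antibody product. It was below its DMSO mean in 11 of 12 line comparisons, which share DMSO libraries within a line, and called lower in 6. In Oci-Ly8 its libraries had 118, 164 and 181 CPM with DMSO, 68.8, 92.2 and 101 with DOT1Li, 67.3, 74.1 and 59.4 with EZH2i, then 32.1, 35.5 and 34.3 with Combo. No treated library reached the DMSO range, and Combo was below both single inhibitors. JCHAIN fell by 0.83 (SE 0.21), 1.20 (SE 0.20) and 2.18 (SE 0.22, adjusted p = 5.07e-10), the last a 4.53-fold drop.
In Oci-Ly18 it had 265, 292 and 234 CPM with DMSO, 175, 186 and 143 with DOT1Li, 193, 215 and 181 with EZH2i, then 172, 159 and 145 with Combo. DOT1Li (-0.65, SE 0.19, adjusted p = 0.0381) and Combo (-0.73, SE 0.20, adjusted p = 3.15e-03) were called, and all treated groups lay below DMSO.
In Oci-Ly7 it had 1077, 1021 and 989 CPM with DMSO, 961, 765 and 746 with DOT1Li, 733, 749.6 and 769 with EZH2i, then 749, 615 and 633 with Combo. Only Combo was called, at -0.63 (SE 0.19, adjusted p = 0.0106), although no treated library overlapped DMSO.
SUDHL6 went the other way with EZH2i. It had 17.7, 13.6 and 8.80 CPM with DMSO, 13.2, 11.4 and 6.18 with DOT1Li, 26.9, 23.1 and 13.6 with EZH2i, then 15, 12.1 and 7.33 with Combo. Replicate 3 was the lowest in each of these 4 groups, and EZH2i, at 0.67 (SE 0.24, adjusted p = 0.0425), was called higher though it overlapped DMSO. That call was lost without DMSO replicate 2 (0.68, adjusted p = 0.0886), DMSO replicate 3 (0.45, adjusted p = 0.247), EZH2i replicate 1 (0.47, adjusted p = 0.246) or EZH2i replicate 2 (0.61, adjusted p = 0.127), and with the line fitted alone (adjusted p = 0.220). These fits do not match libraries by replicate number. Each EZH2i library was above the DMSO library of the same number, though the labels do not say what the numbers mark.
Averaged over lines JCHAIN fell by 0.55 (SE 0.11, adjusted p = 6.69e-04) with DOT1Li, 0.35 (SE 0.10, adjusted p = 8.81e-03) with EZH2i and 0.94 (SE 0.11, adjusted p = 5.07e-09) with Combo. The EZH2i mean was -0.32 (adjusted p = 0.0518) without Oci-Ly7, -0.07 (adjusted p = 0.793) without Oci-Ly8 and -0.70 without SUDHL6, and the Combo mean was -0.52 (adjusted p = 7.66e-04) without Oci-Ly8. Line calls that rested on single libraries were DOT1Li in Oci-Ly8 without DMSO replicate 3 (-0.70, adjusted p = 0.0501) or DOT1Li replicate 1 (-0.68, adjusted p = 0.0952), Combo in Oci-Ly7 without Combo replicate 2 (-0.57, adjusted p = 0.0526), and DOT1Li in Oci-Ly18. The last was lost without DMSO replicate 1 (-0.64, adjusted p = 0.0923), DMSO replicate 2 (-0.57, adjusted p = 0.169), DOT1Li replicate 1 (-0.68, adjusted p = 0.0860), replicate 2 (-0.73, adjusted p = 0.0530) or replicate 3 (-0.54, adjusted p = 0.189), and with DESeq2 (-0.64, adjusted p = 0.0687). JCHAIN shares 87 exonic bases with ENAM on the opposite strand.

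Of 22 tested immunoglobulin genes and partners of JCHAIN, Combo averaged over lines raised 2 and lowered 4, with a median of 0.028 against 0.078 over all genes, of which 46.4% were called, and 4 were higher without the libraries poor in long transcripts. IGHD, the IgD heavy chain of naive B cells, rose by 1.12 (SE 0.07), ERP44, which retains IgM subunits in the cell, fell by 0.26 (SE 0.04), and POU2AF1, a coactivator of immunoglobulin genes, fell by 0.16 (SE 0.03). IGHM was called lower in Oci-Ly7 (-0.36) and SUDHL6 (-0.45) and higher in Oci-Ly8 (0.29).

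Of 34 other plasma cell genes, Combo averaged over lines raised 10 and lowered 7 (median 0.17, against 0.078 over all genes), shares near the 25.7% and 20.7% of all genes. In Oci-Ly7 the counts were 5 higher and 16 lower (-0.33), against 13 and 4 in Oci-Ly8 (0.40), 5 and 10 in SUDHL6, and 10 and 4 in Oci-Ly18, beside the same shares of all genes by line. This list shares genes with earlier ones, so its counts partly repeat theirs. TXNDC11, HYOU1 and MANF are also secretory genes above, MZB1 is among the partners of JCHAIN and EAF2 among those of ELL2. CADM1, an adhesion protein, rose by 1.39 (SE 0.19) on average. SDC1, the surface marker CD138 of plasma cells, had 0 counts in the 12 Oci-Ly7 libraries, which allows up to 0.0154 CPM, and at most 0.077 CPM as a group mean in Oci-Ly8. In Oci-Ly18 it rose from 13.6 to 33.9 CPM with Combo (1.32) and in SUDHL6 it fell from 60.5 to 46.7 CPM (-0.37). CD38 rose from 0.61 to 3.57 CPM in Oci-Ly8 (2.60) and fell in Oci-Ly7 (-0.71), SUDHL6 (-0.34) and Oci-Ly18 (-0.53). TNFRSF17, the receptor BCMA, rose from 0.18 to 0.69 CPM in Oci-Ly8 (1.91) and fell from 10.0 to 4.44 CPM in Oci-Ly7 (-1.18). The line with the largest PRDM1 value thus had SDC1 at 0 both with DMSO and with Combo. With Combo it had lower CD38, TNFRSF17, IRF4 and JCHAIN, while XBP1 was not called and 5 of the 34 genes were higher.

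Combo was compared with each inhibitor and with the sum of their effects. Averaged over lines, 5 of the 6 genes differed between Combo and DOT1Li (35.2% of all genes were called), with PRDM1 (0.78, SE 0.13), IRF4 (0.33, SE 0.07), ELL2 (1.20, SE 0.14) and ERN1 (0.63, SE 0.06) higher and JCHAIN (-0.39, SE 0.11) lower. XBP1, at 0.14 (SE 0.06, adjusted p = 0.0588), was not called there, and it was called with DESeq2 (adjusted p = 0.0381), with its size factors in edgeR (adjusted p = 0.0417) and without a filter on low counts (adjusted p = 5.15e-03). Against EZH2i alone 3 of 6 differed (25% of all), with PRDM1 higher (0.87, SE 0.13) and XBP1 (-0.21, SE 0.06) and JCHAIN (-0.58, SE 0.11) lower. On average PRDM1 and JCHAIN were thus further from DMSO with Combo than with either inhibitor, but few lines showed this alone. PRDM1 was called above DOT1Li in 1 line (range 0.0038 to 2.39) and above EZH2i in 1 (0.23 to 2.16). JCHAIN was called below DOT1Li in 1 line (-1.35 to 0.18) and below EZH2i in 2 (-0.98 to -0.17). These averages against single inhibitors were not recomputed without single lines.
Within lines Combo differed from DOT1Li in 3 of 6 genes in Oci-Ly7 (18.1% of all genes were called), 4 in Oci-Ly8 (19.5%), 3 in SUDHL6 (25.6%) and 3 in Oci-Ly18 (21.6%), and from EZH2i in 2 in Oci-Ly7 (8.83%), 4 in Oci-Ly8 (17.4%), 2 in SUDHL6 (7.12%) and 2 in Oci-Ly18 (12.8%). In Oci-Ly8 JCHAIN was lower and IRF4 higher with Combo than with either inhibitor. With the replicate number as a block, JCHAIN in Oci-Ly7 was also called against DOT1Li (-0.31, adjusted p = 3.33e-03) and IRF4 in SUDHL6 against EZH2i (-0.30, adjusted p = 0.0291).
The departure from additivity is the Combo change minus both single changes on the log2 scale. Averaged over lines 0 of 6 were called (0.0507% of all genes were, which is 9 genes), with PRDM1 at -0.15 (SE 0.20) and XBP1 at 0.18 (SE 0.08, adjusted p = 0.660), the 1 gene of the 6 with an unadjusted p under 0.05. DESeq2 called 0 of the 6 as well.
Within lines XBP1 in Oci-Ly7 was the 1 called value of the 24, at 1.02 (SE 0.16, adjusted p = 6.98e-04), where 0.0507% of all genes were called. There Combo was above DOT1Li (0.37, SE 0.11, adjusted p = 0.0159) and above EZH2i (0.69, SE 0.11, adjusted p = 3.53e-05). The departure stayed between 0.86 and 1.18 and called in each of 48 refits without 1 library. Only 12 of these left out an Oci-Ly7 library, and other lines bear on it only through scaling and the shared spread. With the line fitted alone the departure was 1.03 and not called (adjusted p = 0.334). The value against DOT1Li was lost without DOT1Li replicate 3 (0.21, adjusted p = 0.200) or Combo replicate 2 (0.26, adjusted p = 0.173), and with the line fitted alone (0.37, adjusted p = 0.163).
PRDM1 in Oci-Ly7 was above both single inhibitors with Combo (2.39, SE 0.23, and 2.16, SE 0.23, both called), and its departure of 0.75 (SE 0.40, adjusted p = 0.988) was not called. In Oci-Ly18 the PRDM1 departure was -0.77 (SE 0.36, adjusted p = 0.637), and Combo was called different from neither inhibitor. The called share was 0.101% of all genes in Oci-Ly8, 0.0225% in SUDHL6 and 0.361% in Oci-Ly18.

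**Figure D4:**
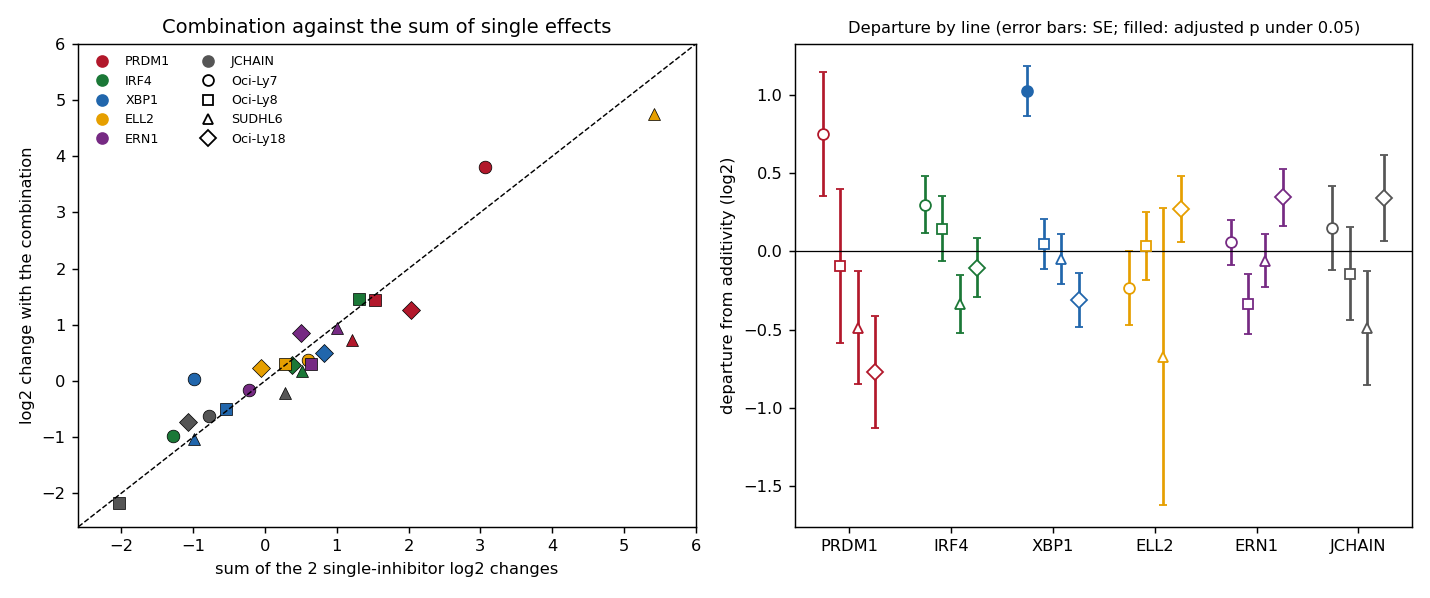
Left, the Combo log2 change (y axis) against the sum of both single-inhibitor changes (x axis) for 6 genes in 4 lines, with the line of equality. Right, the difference of these values with its SE. XBP1 in Oci-Ly7 is the filled point, at 1.02, and PRDM1 runs from 0.75 in Oci-Ly7 to -0.77 in Oci-Ly18.

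Whether a treatment's effect differed between the 4 lines was tested for each gene. Under DOT1Li 1 of 6 genes differed (IRF4, 5.14% of all genes were called), under EZH2i 5 of 6, PRDM1 being the exception (24%), and under Combo 6 of 6 (43.8%). For PRDM1 the EZH2i test gave an adjusted p of 0.130, and it was called without a filter on low counts (adjusted p = 5.02e-04), without SUDHL6 EZH2i replicate 3 (adjusted p = 0.0314) or without Oci-Ly7 DOT1Li replicate 1 (adjusted p = 0.0451). For DOT1Li, ERN1 (adjusted p = 0.232) was called without Oci-Ly8 DMSO replicate 1 (adjusted p = 0.0446), and without the filter XBP1 and JCHAIN were called too.

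As a description, the pattern of each gene over the 16 group means, with each line's mean removed, was compared with that of all genes whose mean log2 CPM reached 1. These points share libraries and no p is given. The most alike were RTL10 (Pearson r 0.965), SLC25A24 (0.948) and CSRP2 (0.946) for PRDM1, and GHDC (0.917), ZFAT (0.892) and TMEM18 (0.886) for IRF4. For XBP1 they were TBC1D2B (0.921), TPST2 (0.877) and TMEM109 (0.869), and for ELL2 SLC2A13 (0.970), IL6ST (0.957) and GOLM1 (0.957). For ERN1 they were LRRC23 (0.963), FUT8 (0.941) and TMEM184B (0.924), and for JCHAIN DNAJC19 (0.927), UBA3 (0.900) and PDK1 (0.893). None of the 6 genes was among these. Between the 6, r was 0.634 for ELL2 and ERN1, 0.621 for IRF4 and ERN1 and -0.580 for PRDM1 and JCHAIN, and within -0.351 to 0.254 for the other pairs.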

How the data were processed

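The authors deposited raw read counts per gene for 48 libraries in 1 table, and every sample column was used. Per the labels' protocols the libraries were stranded and poly(A) selected. Per the submitters' processing notes STAR, DESeq2 and GRCh38 (hg38) were used. No source used here gives the counting tool, its annotation or its strand setting. Depth is the total count of a library, with a median of 14499938.

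Low genes were removed with edgeR's filterByExpr, which left 17749 of 37706 genes. edgeR 4.0.16 (limma 3.58.1, R 4.3.3) fitted 16 group means over 48 libraries (32 residual degrees of freedom) with TMM scaling, and quasi-likelihood F tests were adjusted by Benjamini-Hochberg over all tested genes, with 0.05 as the threshold. The SE is the size of the log2 change divided by the square root of F. Averages over lines, Combo against each inhibitor, departures from additivity and differences between lines are contrasts of that fit. Exonic lengths came from GENCODE 29. The code was tested on simulated counts. The labels do not say what a replicate number marks. Deviations of same-numbered libraries from their group means correlated positively in 72 of 72 pairs, and all 3 pairs were over 0.1 for DMSO with DOT1Li in Oci-Ly8 (0.238 to 0.415), DOT1Li with Combo in Oci-Ly7 (0.132 to 0.232) and EZH2i with Combo in SUDHL6 (0.118 to 0.182). For those comparisons blocked values are given where they change a call. Alternatives were DESeq2 1.42.0, its size factors in edgeR, no filter, a replicate block, each line alone, and leaving out libraries. The means of 3 lines and the fit without the libraries poor in long transcripts were added after seeing the data, as were the settings for list counts.

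The 6 genes and the 8 gene lists were chosen with earlier results of these data known. Besides the 6, the text names up to 3 called genes per list with the smallest adjusted p under Combo, averaged over lines, a panel of 14 genes, and the 3 genes most alike in pattern to each. MS4A1, SERPINA9, TRAC, CD3D, CD2 and CD68 are named as markers of cell types.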

Additional observations from a re-analysis of the deposited data

Results flagged for a closer look

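For 12 combinations of gene and treatment, the effect against DMSO differed between the 4 lines by an F test of that difference (edgeR's quasi-likelihood test, Benjamini-Hochberg adjusted over all genes). With DOT1Li, IRF4 was lower in Oci-Ly7 and higher in Oci-Ly8 (adjusted p = 6.61e-04). With EZH2i the adjusted p was 1.05e-07 for IRF4, 1.84e-09 for XBP1, which was lower in Oci-Ly7 and SUDHL6 and higher in Oci-Ly18, and 5.17e-07 for ELL2, which had its largest value in SUDHL6. It was 3.28e-05 for ERN1, which was called in every line but Oci-Ly7, and 3.04e-04 for JCHAIN, which was lower in Oci-Ly8 and higher in SUDHL6. With Combo it was 8.41e-08 for PRDM1, at 3.81 in Oci-Ly7 against 0.72 to 1.44 in the other lines. It was 8.42e-12 for IRF4, 2.62e-09 for XBP1, 7.54e-08 for ELL2, 1.29e-07 for ERN1 and 1.74e-05 for JCHAIN. Groups of 3 libraries are too small for a search for single outlying libraries.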

How the results depend on the processing

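The number of the 6 genes called on average was 3, 5 and 6 for DOT1Li, EZH2i and Combo under DESeq2, its size factors, no filter and the replicate block. XBP1 in Combo against DOT1Li passed the threshold under DESeq2 (0.15), its size factors (0.15), no filter (0.14) and without the libraries poor in long transcripts (0.16). ERN1 in Combo against EZH2i passed without those libraries (-0.14). Near-0 departures changed sign: IRF4 was -0.0068 with no filter and -0.017 without those libraries, and ERN1 was -0.0056 with no filter. So did XBP1 with EZH2i in Oci-Ly8 (0.0096 with DESeq2, 0.0097 with its size factors, 0.080 without those libraries) and ERN1 with DMSO in Oci-Ly8 against SUDHL6 (-0.011, -0.012) and Oci-Ly18 (-0.043, -0.043) with DESeq2 and its size factors. With no filter the test between lines passed for XBP1 (adjusted p = 0.0482) and JCHAIN (1.32e-03) under DOT1Li and PRDM1 (5.02e-04) under EZH2i. The cause was not tested.

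In 21 of 24 pairs of groups at least 1 same-numbered pair of libraries had a correlation of 0.1 or less, so the numbers were not taken to pair the samples there. The cut of 0.1 was a choice. Since 72 of 72 pairs correlated positively, a pairing by number is not excluded in those groups either. With the replicate block, XBP1 in Combo against DOT1Li (0.14) and ERN1 in Combo against EZH2i (-0.15) passed, as did the tests between lines for XBP1 (adjusted p = 0.0487) and JCHAIN (0.0131) under DOT1Li and PRDM1 (6.99e-03) under EZH2i. It added 15 calls against DMSO within lines and lost 0.

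The mean of 3 lines without Oci-Ly7 was 0.066 for IRF4 with DOT1Li, 0.17 for XBP1 with EZH2i and -0.32 for JCHAIN with EZH2i. Without Oci-Ly8 it was -0.32, 0.19 and -0.18 for IRF4 with DOT1Li, EZH2i and Combo and -0.07 for JCHAIN with EZH2i, and 3 genes were called with EZH2i. Without SUDHL6 it was -0.062 for ELL2 and -0.25 for ERN1 with DOT1Li, and 0.10 and 0.015 for XBP1 with EZH2i and Combo. Without Oci-Ly18 it was 0.19 for IRF4 and -0.37 for XBP1 with EZH2i.

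Leaving out 1 library, with the dispersion trend of the full fit, gave -0.18 to -0.064 for IRF4 and -0.18 to -0.082 for ERN1 with DOT1Li on average, 0.099 to 0.18 for XBP1 in Combo against DOT1Li, and -0.16 to -0.13 for ERN1 in Combo against EZH2i. Departures ran from -0.037 to 0.075 for IRF4, -0.063 to 0.039 for ERN1 and -0.10 to 0.024 for JCHAIN. The adjusted p between lines ran from 0.0446 to 0.478 for ERN1 with DOT1Li and from 0.0314 to 0.271 for PRDM1 with EZH2i. Within lines, signs changed in uncalled values: XBP1 with Combo (-0.077 to 0.13) and ERN1 with EZH2i (-0.0097 to 0.084) in Oci-Ly7, ERN1 with DOT1Li (-0.26 to 0.15) and XBP1 with EZH2i (-0.095 to 0.078) in Oci-Ly8, IRF4 with DOT1Li (-0.078 to 0.095) and JCHAIN with Combo (-0.45 to 0.040) in SUDHL6, and ELL2 with DOT1Li (-0.070 to 0.076) and EZH2i (-0.21 to 0.035) in Oci-Ly18.

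The count of secretory genes lower on average with DOT1Li was 12 without Oci-Ly7 or Oci-Ly8 and 18 to 32 without 1 library. That of genes higher with EZH2i was 23 without Oci-Ly7, 3 without Oci-Ly8 and 16 with the block. In Oci-Ly7 the genes lower with DOT1Li were 0 to 22 without 1 library, and those lower with EZH2i 32 with the block and 31 with the line alone. Depth limits ELL2 in SUDHL6, with 2 DMSO counts in all. An average has no test with each line fitted alone.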
